A study of Mus musculus with 66 samples.

Results

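Spinal cords of Rorb h3/h3 mice (label H3, 4 animals) were compared with those of C57BL/6J mice (label WT-B6, 3 animals), which made 7 of the 66 libraries of the series. The libraries were chosen by their labels for tissue and genotype, and all genes were described. The series examined spontaneous high-stepper strains with a gait phenotype that was attributed to Rorb, here h1 to h4, and the question of this comparison was which transcripts differed between h3 homozygotes and unaffected mice. Rorb h3/h3 mice, named B6.Cg-Tyr c-2J/Rorb hstp-3J/GrsrJ, carry the albino allele Tyr c-2J as well as the h3 allele, whose mutation had not been identified and whose link to Rorb rests in part on complementation tests of mixed outcome. The C57BL/6J controls carry neither. The other groups used here for spinal cord were H2 (4 mice), on the same albino background as H3, H1 (3 mice), on C57BL/6J, and H4 (4 mice), on a background that lacks the interleukin 1 receptor gene Il1r1. Homozygotes of one strain were one colony each, so the h3 allele, other alleles fixed in that colony and the housing of the colony cannot be told apart. The animal identifiers of the C57BL/6J and H1 mice share a stem, those of the H3 mice have another, and H3 replicates 3 and 4 share a longer one, and what these stems stand for is not given in the sources used here. By the labels the H3 mice were 9.6, 8.3, 8.0 and 8.0 weeks old and the third was female, and the C57BL/6J mice were all 8.0 weeks old with the first and second female. The H1 mice were all 8.0 weeks old with replicate 3 male. The H2 mice were 7.9, 7.9, 9.4 and 9.4 weeks old with replicate 4 male. The H4 mice were 8.4, 8.6, 8.6 and 8.6 weeks old with replicates 3 and 4 male. The whole extruded cord was used, so levels are averages over all its cells, and fewer cells of a type and less RNA per cell cannot be told apart.

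Rorb encodes the nuclear receptor ROR beta, which in the cord is made, among other cells, by inhibitory interneurons of the dorsal horn that gate sensory input from muscle and skin. Interferons are cytokines that induce a large set of antiviral genes through an interferon-stimulated response element in their promoters, and they raise the molecules that present antigen on major histocompatibility complex class I. Microglia are the resident macrophages of the cord. The unfolded protein response of the endoplasmic reticulum (ER) adjusts the supply of chaperones to the load of secreted and membrane proteins.

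Total expected counts ranged from 42851690 to 47653578 in C57BL/6J and from 39052049 to 51656914 in H3 libraries. The first principal component (35.2% of the variance of the most variable genes) followed sex and the second (17.7%) placed the H3 libraries below the C57BL/6J libraries. One identifier without a symbol, ENSMUSG00000098178, took 1.76%, 4.53% and 1.81% of the counts of the C57BL/6J libraries and 3.78%, 2.08%, 9.93% and 8.03% of those of the H3 libraries. The part of this identifier, of sex and of age in the differences was not tested beyond the alternative fits given below. The tissue label was checked against its markers. Genes of the lower thoracic to sacral Hox clusters summed to 319.8 to 342.2 CPM (counts scaled to one common library total, with TMM factors) in the 7 libraries, and 13 genes of neurons in general to between 6862 and 7417 CPM. Among markers of tissues that can adhere to an extruded cord, 17 genes of meningeal fibroblasts summed to 324.3 to 372.9 CPM in C57BL/6J and 315.9 to 359.8 CPM in H3 libraries, which overlapped. None of the 17 was called by edgeR or DESeq2, 5 had an unadjusted p under 0.05, 15 had a negative log2 fold change and the median was -0.19, or -0.06 without C57BL/6J replicate 1. Over all 17512 genes tested, 2376 had an unadjusted p under 0.05. Against H2 all 17 were lower by point estimate, 1 fell and the median was -0.32. The part of meningeal content in the differences was not tested. Other such markers were lower in level, with 8 choroid plexus genes at 11.25 to 13.77 CPM, 10 Schwann cell genes at 108.8 to 136.2 CPM and 8 genes of dorsal root ganglia at 49.04 to 60.17 CPM, and these ranges of H3 and C57BL/6J overlapped for choroid plexus and dorsal root ganglia. Schwann cell genes summed to 108.8 to 120.8 CPM in H3 and 123.1 to 136.2 CPM in C57BL/6J libraries.

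Rorb itself (chr19:18930609-19111196, GRCm38) was measured at 40.5, 39.0 and 36.2 CPM in C57BL/6J and at 42.8, 34.7, 39.0 and 36.1 CPM in H3 spinal cords. The groups overlapped. The difference of the means was -0.446 CPM (exact two-sided permutation test, p = 0.80, smallest possible p = 0.029) and the log2 fold change was -0.02 (SE 0.070, adjusted p = 0.95 in edgeR's quasi-likelihood test with Benjamini-Hochberg adjustment). It was called higher in H3 than in H2 (log2 fold change 0.71) and not called against H1 (0.26, adjusted p = 0.12 in edgeR's test). Normalised together, the range was 34.5 to 42.5 CPM in H3, 30.8 to 32.0 CPM in H1, 22.7 to 24.5 CPM in H2 and 7.04 to 10.1 CPM in H4 spinal cords. The other receptors of the family, among 5 genes of ROR and REV-ERB receptors, included no called gene, and Rora had a log2 fold change of -0.02.

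Of 17512 genes tested, 176 (1.01%) were called at an adjusted p of 0.05 by edgeR's quasi-likelihood test. Of these, 58 rose (0.331% of the genes tested) and 118 fell (0.674%). Most changes were small: the median log2 fold change was 0.47 among genes that rose and -0.28 among genes that fell, and 14 genes rose and 3 fell by more than 2-fold. Rising genes were mainly of low or moderate level, and falling genes were mainly of moderate or high level, as the plot of fold change against level shows. In all 176 called genes the H3 and C57BL/6J libraries did not overlap. Among all genes tested, 1090 (6.22%) had every H3 library above every C57BL/6J library and 1209 (6.90%) had every H3 library below. The median log2 fold change of all genes was -0.00, and 50.8% were lower in H3. An unadjusted p under 0.05 was found for 2376 of the 17512 genes, beside which such counts in the lists below stand.

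**Figure D1:**
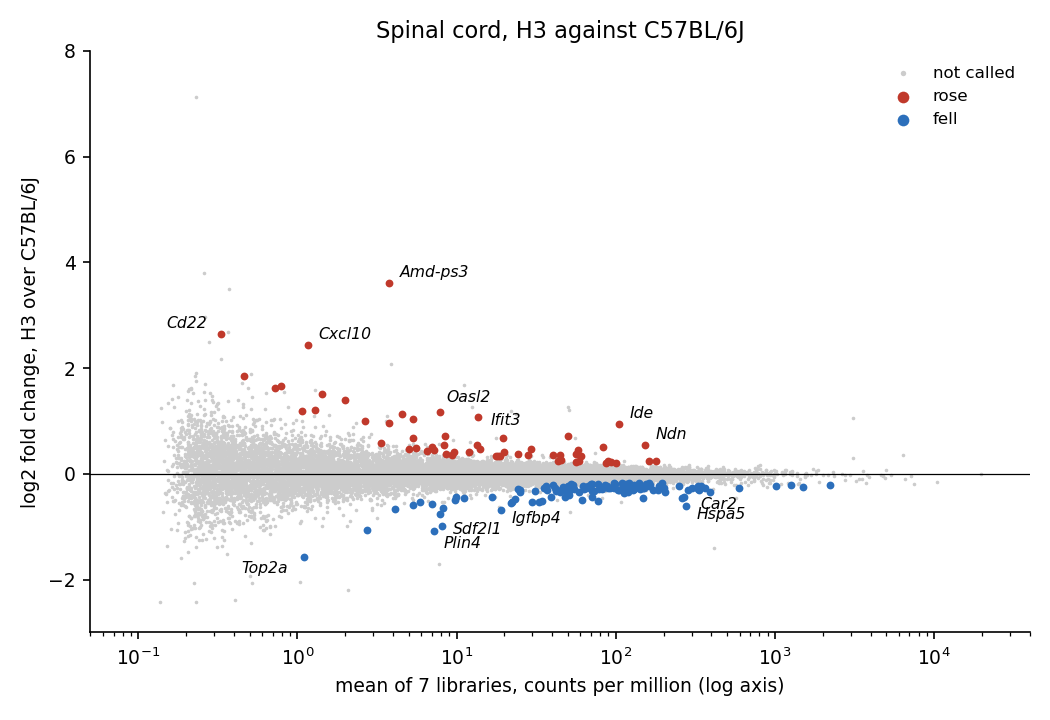
Log2 fold change of H3 over C57BL/6J spinal cord (vertical axis) against the mean level of the 7 libraries in CPM (horizontal log axis), one point per gene tested. The 58 genes that rose are red, the 118 that fell are blue and genes not called are grey. Amd-ps3, Cd22 and Cxcl10 are the highest of the red points, and the highest point of all is a grey one at a low level.

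Interferon-induced genes were higher in H3 spinal cord. All 20 members tested of the list had a positive log2 fold change, with a median of 0.52, and 5 of them rose (Usp18, Oasl2, Ifit1, Ifit3 and Ifit2) while none fell. Ifit3, an interferon-induced protein with tetratricopeptide repeats that takes part in antiviral signalling, was at 7.93, 8.70 and 8.17 CPM in C57BL/6J and at 18.5, 14.4, 15.4 and 21.8 CPM in H3 spinal cords. Its lowest H3 library was well above its highest C57BL/6J library, and the log2 fold change was 1.08 (SE 0.12, adjusted p = 0.0018 in edgeR's quasi-likelihood test with Benjamini-Hochberg adjustment). Oasl2, a relative of the oligoadenylate synthetases, was at 4.27, 4.88 and 4.63 CPM in C57BL/6J and at 11.3, 9.34, 7.92 and 12.5 CPM in H3 (log2 fold change 1.16, SE 0.14). Usp18, which removes ISG15 from proteins and dampens the interferon receptor, was at 0.826, 0.609 and 0.617 CPM in C57BL/6J and at 1.68, 1.73, 2.01 and 2.47 CPM in H3 (log2 fold change 1.51, SE 0.23). In all of these the groups were apart. Summed over the 20 members, the level was 144.9 to 158.3 CPM in C57BL/6J and 182.2 to 228.7 CPM in H3 libraries. In 12 of the 20 every H3 library was above every C57BL/6J library, against 6.22% of all genes.

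The members of that list that did not pass the test were also higher by their point estimates. Ifi44 had a log2 fold change of 0.91 (adjusted p = 0.12 in edgeR's test, Benjamini-Hochberg adjustment), Bst2 of 0.81 (adjusted p = 0.10) and Irf7, the transcription factor that amplifies the response, of 0.70 (adjusted p = 0.16). The fitted values of the members ran from 0.14 for Ifitm3 to 1.51 for Usp18.

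A further 15 genes known to be induced by interferon, picked from among the 58 risers after their values were seen, rose by 0.35 to 2.43 on the log2 scale. They were Cxcl10, Ddx60, Zc3hav1, Gbp6, Rnf213, Lgals3bp, Ifi204, Ifi209, Ifi27l2a, Slfn9, Iigp1, Parp12, Parp14, Ifit3b and Rigi. Cxcl10, a chemokine that attracts T cells, was at 0.289, 0.305 and 0.396 CPM in C57BL/6J and at 1.44, 1.48, 1.72 and 2.57 CPM in H3 (log2 fold change 2.43, SE 0.29, adjusted p = 0.0021 in edgeR's quasi-likelihood test with Benjamini-Hochberg adjustment). Every H3 library was far above the highest C57BL/6J library. Rigi, the sensor of viral RNA, rose by 0.54 (SE 0.12), and Zc3hav1, which binds CpG-rich viral RNA, rose by 0.55 (SE 0.068). Their direction was fixed by that choice. Ifit3 and Ifit3b are near-identical neighbours, and RSEM divides reads between such copies, so their separate values are uncertain.

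The regulatory sequence shared by several risers is shown for the chemokine gene with the largest interferon-type fold change, for an antiviral gene and for the shared light chain of class I molecules. These are the 250 bases before the annotated start (RefSeq, GRCm38.p6), written 5′ to 3′ along the gene, with each match to GAAA, then 2 bases, then GAAA, on either strand, in capitals.
Cxcl10 (chr5:92348890-92349139, minus strand): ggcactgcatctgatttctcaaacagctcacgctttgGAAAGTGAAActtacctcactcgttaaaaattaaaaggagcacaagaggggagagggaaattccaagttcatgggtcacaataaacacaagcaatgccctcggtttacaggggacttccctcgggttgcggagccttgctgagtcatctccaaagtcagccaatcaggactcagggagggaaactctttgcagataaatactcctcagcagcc
Ifit3 (chr19:34583279-34583528, plus strand): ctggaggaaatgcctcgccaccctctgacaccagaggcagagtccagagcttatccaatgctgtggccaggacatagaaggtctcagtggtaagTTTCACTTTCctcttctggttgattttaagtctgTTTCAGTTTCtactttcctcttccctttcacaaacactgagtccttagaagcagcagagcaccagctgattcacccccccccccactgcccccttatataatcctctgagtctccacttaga
B2m (chr2:122147437-122147686, plus strand): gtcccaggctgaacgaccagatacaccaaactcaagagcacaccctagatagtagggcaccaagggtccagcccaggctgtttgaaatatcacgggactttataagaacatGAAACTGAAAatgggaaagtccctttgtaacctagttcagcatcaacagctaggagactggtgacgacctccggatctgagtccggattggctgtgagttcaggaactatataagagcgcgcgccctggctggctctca
Cxcl10 and B2m hold 1 match each and Ifit3 holds 2. The letters were searched for on both strands of windows from 250 bases before to 50 after the start, which were found for 12259 of the 17512 genes (15660 windows). A match was present in 2.97% of all windows, in 18.4% of the windows of risers (9 of 49), in 3.7% of those of fallers (4 of 108) and in 52.6% of those of the interferon list (10 of 19). The search for this element was added after the data were seen. A match describes these letters and is not a measured site.

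Some genes of antigen presentation were also higher. Of 12 tested, 3 rose, none fell and 11 had a positive log2 fold change, with a median of 0.51. H2-D1, a class I heavy chain, was at 46.9, 47.7 and 49.4 CPM in C57BL/6J and at 64.0, 63.4, 58.3 and 76.2 CPM in H3 (log2 fold change 0.45, SE 0.073, adjusted p = 0.011 in edgeR's quasi-likelihood test with Benjamini-Hochberg adjustment). B2m, beta-2 microglobulin, was at 51.0, 58.3 and 49.4 CPM in C57BL/6J and at 67.2, 60.7, 65.0 and 73.1 CPM in H3 (log2 fold change 0.33, SE 0.068). The groups did not overlap for either gene, although the lowest H3 level of B2m was close to the highest C57BL/6J level. H2-K1, another class I heavy chain, rose by 0.38 (SE 0.070). Class I genes are close copies of each other, so reads may have been divided among them. The class II genes were low and did not pass the test: Cd74, the invariant chain, was at 0.656 to 0.859 CPM in C57BL/6J and 1.23 to 2.50 CPM in H3 (log2 fold change 1.10, adjusted p = 0.089 in edgeR's test), and H2-Ab1 had a log2 fold change of 1.40 (adjusted p = 0.12). Nlrc5, the transactivator of class I genes, had a log2 fold change of 0.88 (adjusted p = 0.060 in edgeR's test). Tap2, a subunit of the peptide transporter, and H2-Q4 also rose, by 0.41 and 0.96, and were picked after their values were seen.

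Markers of microglia and complement genes were partly higher. Among 18 microglial genes 4 rose and none fell, and the median log2 fold change was 0.22. Ctss, the lysosomal protease cathepsin S, was at 47.1, 52.9 and 43.7 CPM in C57BL/6J and at 57.9, 57.5, 64.0 and 70.0 CPM in H3 (log2 fold change 0.38, SE 0.076, adjusted p = 0.032 in edgeR's quasi-likelihood test with Benjamini-Hochberg adjustment). Trem2, a lipid receptor of microglia, rose by 0.49 and C1qb, a chain of the first complement component, by 0.33. Genes that mark resting microglia did not pass the test: P2ry12 had a log2 fold change of -0.17 (adjusted p = 0.42 in edgeR's test), Tmem119 of 0.07 (adjusted p = 0.81) and Cx3cr1 of 0.22 (adjusted p = 0.12). P2ry12 was at 20.3 to 26.3 CPM in C57BL/6J and 18.6 to 22.6 CPM in H3, and these ranges overlapped. Summed over the 18 genes, the level was 406.8 to 422.8 CPM in C57BL/6J and 441.6 to 483.3 CPM in H3 libraries, without overlap. A further 6 genes of microglia or other myeloid and lymphoid cells, picked after their values were seen, rose by 0.24 to 2.64 (Mpeg1, Ptprc, Lyz2, Clec7a, Cd22 and Cd83). Clec7a, a receptor for fungal glucans, was at 0.680 to 0.793 CPM in C57BL/6J and at 1.07 to 2.06 CPM in H3.

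Of 12 complement genes 2 rose, C4b and C1qb, which is in both lists, and the median was 0.12. C4b, the fourth complement component made by several glial cells, was at 61.5, 68.6 and 70.9 CPM in C57BL/6J and at 84.8, 87.8, 105 and 102 CPM in H3 (log2 fold change 0.50, SE 0.074, adjusted p = 0.0078 in edgeR's quasi-likelihood test with Benjamini-Hochberg adjustment). C3 had a log2 fold change of 0.13 (adjusted p = 0.22). The calls of these groups depended on the libraries and on the fit. DESeq2 called 8 interferon-induced, 5 antigen presentation and 8 microglial genes, edgeR without the low-count filter 10, 6 and 7, and one fit of 5 groups 8, 6 and 8, and without H3 replicate 1 the microglial count was 7. With sex as a covariate 3 interferon-induced genes, 0 antigen presentation genes and 0 microglial genes passed the test, at medians of 0.54, 0.41 and 0.22. With the log2 share of ENSMUSG00000098178 as a covariate the counts were 2, 0 and 0, at medians of 0.35, 0.50 and 0.21. Without C57BL/6J replicate 1 they were 3, 0 and 0, with 0 complement genes, and without C57BL/6J replicate 3 they were 3, 0 and 0, with 1 complement gene. Without H3 replicate 3 no microglial gene was called, and without C57BL/6J replicate 2, H3 replicate 2 or H3 replicate 4 it was 1 gene.

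**Figure D2:**
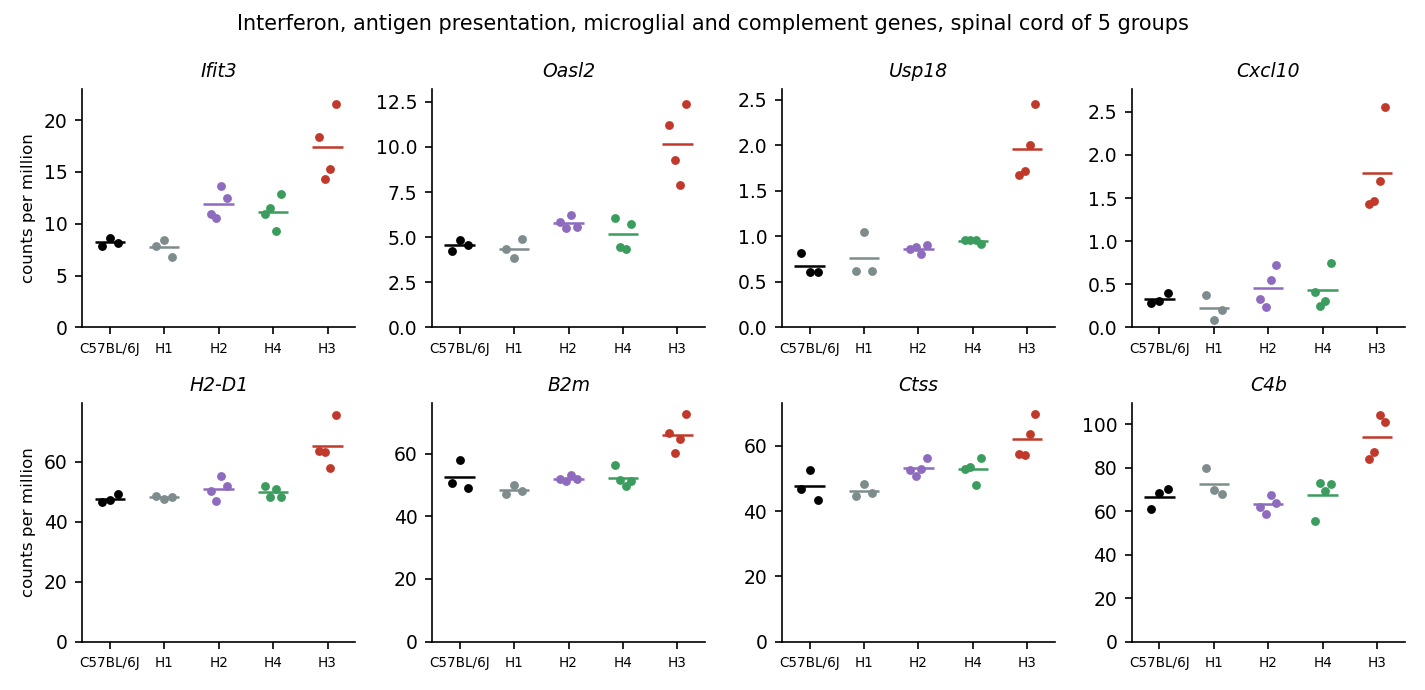
Levels in CPM (vertical axes, from 0) of 8 interferon, antigen presentation, microglial and complement genes in spinal cord of C57BL/6J (3), H1 (3), H2 (4), H4 (4) and H3 (4) mice, all normalised together, with one point per mouse and a line at the group mean. The H3 mice lie above all C57BL/6J mice for each gene, with Cxcl10 at 1.43 to 2.56 CPM in H3 and at most 0.752 CPM in any other group.

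These genes were also set beside the other mutant strains. Ifit3 ranged from 7.88 to 8.64 CPM in C57BL/6J, from 6.83 to 8.45 in H1, from 10.6 to 13.6 in H2, from 9.28 to 12.9 in H4 and from 14.3 to 21.6 in H3. Oasl2 ranged from 3.82 to 4.88 CPM in H1, 5.49 to 6.22 in H2, 4.36 to 6.06 in H4 and 7.87 to 12.4 in H3. For both genes the H3 mice were above every other mouse. The direct comparison of H3 with H2, which share the albino background, called 132 of 17298 genes (0.763%), of which 45 rose (0.260%) and 87 fell (0.503%). In it 3 of the 20 interferon-induced genes rose, at a list median of 0.45. Oasl2 was higher by 0.82 (adjusted p = 0.0078 in edgeR's quasi-likelihood test with Benjamini-Hochberg adjustment), Usp18 by 1.17, Cxcl10 by 1.94, H2-D1 by 0.35, B2m by 0.35 and C4b by 0.58, all called, and Ifit3 by 0.55 (adjusted p = 0.054). In the antigen presentation, complement and microglial lists 2, 1 and 0 genes rose and 0, 1 and 0 fell, at medians of 0.19, 0.10 and 0.09. The comparison of H3 with H1 called 91 of 17522 genes (0.519%), 39 that rose (0.223%) and 52 that fell (0.297%). There 5 of the 20 rose at a list median of 0.64. Ifit3 was higher by 1.17 (adjusted p = 0.0032 in edgeR's test), Oasl2 by 1.23 and B2m by 0.45. In the antigen presentation, complement and microglial lists 2, 2 and 3 genes rose against H1 and none fell, at medians of 0.44, 0.18 and 0.21. Against the same C57BL/6J libraries 50 of 17309 genes were called in H1 (0.289%), 365 of 17464 in H2 (2.09%) and 305 of 17427 in H4 (1.75%). In these comparisons the medians of the interferon list were -0.07 in H1, 0.07 in H2 and 0.06 in H4, and 0, 1 and 1 of its genes rose, beside 0.127%, 0.876% and 0.562% of all genes tested. The medians of the antigen presentation list were 0.00 in H1, 0.28 in H2 and 0.21 in H4, with 0, 2 and 0 genes that rose and 6, 11 and 11 of 12 higher by point estimate. Those of the microglial list were 0.00, 0.13 and 0.09, with no gene called and 10, 16 and 13 of 18 higher. All of these comparisons share libraries with the comparison of H3 and C57BL/6J, so their values stand side by side and are not independent.

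Chaperones and folding enzymes of the ER were lower in H3 spinal cord. Of 32 tested, 11 fell and none rose, 27 had a negative log2 fold change, and the median was -0.15. The 11 were Hspa5, Sdf2l1, Manf, Creld2, Calr, Pdia6, Pdia4, Pdia3, Dnajb11, Hsp90b1 and Dnajc3. Hspa5, the main ER chaperone BiP, was at 337, 283 and 416 CPM in C57BL/6J and at 215, 233, 225 and 235 CPM in H3 (log2 fold change -0.61, SE 0.092, adjusted p = 0.0089 in edgeR's quasi-likelihood test with Benjamini-Hochberg adjustment). The C57BL/6J mice varied more among themselves than the H3 mice, with an SD of 67.1 against 9.26 CPM, and the groups did not overlap. Sdf2l1, a partner of BiP and its co-chaperones, was at 10.2, 9.45 and 14.4 CPM in C57BL/6J and at 4.69, 6.85, 6.51 and 4.91 CPM in H3 (log2 fold change -0.98, SE 0.16). Manf fell by 0.53, Creld2 by 0.64, the lectin chaperone Calr by 0.44 and the disulphide isomerase Pdia6 by 0.43. Xbp1, the transcription factor of the IRE1 branch, fell by 0.44 (SE 0.087), the single called gene among 25 ER stress sensors and ATF4 targets, whose median was -0.04. This call was lost without C57BL/6J replicate 1 or 3, without H3 replicate 2, 3 or 4 and with the log2 share of ENSMUSG00000098178 as a covariate. None of 25 genes of ER translocation and secretory transport was called by edgeR or DESeq2 (median -0.06, 3 with an unadjusted p under 0.05). P4ha1, a collagen prolyl hydroxylase, and Serpinh1, the collagen chaperone, which were picked after their values were seen, fell by 0.52 and 0.44, while none of 24 collagen chains was called by edgeR (median 0.03, 3 with an unadjusted p under 0.05), and DESeq2 called 1 of them lower, as did edgeR without the low-count filter.

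The promoters of 3 ER chaperone genes that fell are shown because they hold an ER stress element, written as CCAAT, then 9 bases, then CCACG, on either strand. The 250 bases before the start (RefSeq, GRCm38.p6) are given 5′ to 3′ with each match in capitals.
Hspa5 (chr2:34771840-34772089, plus strand): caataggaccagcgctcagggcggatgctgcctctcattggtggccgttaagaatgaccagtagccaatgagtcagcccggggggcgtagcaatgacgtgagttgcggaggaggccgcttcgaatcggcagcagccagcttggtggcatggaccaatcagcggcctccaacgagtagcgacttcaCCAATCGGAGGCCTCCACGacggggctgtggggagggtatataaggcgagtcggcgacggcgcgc
Hsp90b1 (chr10:86705445-86705694, minus strand): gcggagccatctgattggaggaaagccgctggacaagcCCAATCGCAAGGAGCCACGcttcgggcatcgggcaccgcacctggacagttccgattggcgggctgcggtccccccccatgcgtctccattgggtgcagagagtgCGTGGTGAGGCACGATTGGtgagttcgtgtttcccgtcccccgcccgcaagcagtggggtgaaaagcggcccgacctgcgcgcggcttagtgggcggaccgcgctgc
Pdia6 (chr12:17266339-17266588, plus strand): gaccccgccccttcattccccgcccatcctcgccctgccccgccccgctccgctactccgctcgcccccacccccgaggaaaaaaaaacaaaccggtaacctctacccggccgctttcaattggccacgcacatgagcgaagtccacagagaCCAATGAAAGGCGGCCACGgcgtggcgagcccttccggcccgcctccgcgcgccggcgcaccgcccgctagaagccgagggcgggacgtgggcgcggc
Hsp90b1 holds 2 matches, one on each strand, and Hspa5 and Pdia6 hold 1 each. The element was in 0.14% of all windows, in 5.56% of the windows of fallers (6 of 108), in none of the 49 windows of risers and in 29.4% of the windows of the ER chaperone list (10 of 34). The fallers with a match were Calr, Creld2, Dnajc3, Hsp90b1, Hspa5 and Pdia6, and the windows searched for the other chaperones that fell had none. The core site of ROR receptors, AGGTCA, was in 12.7% of all windows, 18.4% of those of risers and 13.9% of those of fallers.

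In the other strains most of the same chaperones were below the C57BL/6J mice as well. In H4 each of the 11 was below all C57BL/6J mice, whereas Hsp90b1, Pdia3 and Pdia4 in H1 and Hsp90b1, Pdia3, Calr and Creld2 in H2 overlapped with them. Hspa5 ranged from 281 to 413 CPM in C57BL/6J, 245 to 271 in H1, 228 to 265 in H2, 215 to 232 in H4 and 213 to 234 in H3. Against the shared controls 1, 8 and 11 of the 32 genes fell in H1, H2 and H4, with medians of -0.13, -0.11 and -0.12, beside 0.162%, 1.21% and 1.19% of all genes tested that fell. In the direct comparisons with H2 and with H1, 0 of the 32 genes were called, at medians of -0.05 and -0.07. The H3 count of 11 moved with the libraries kept. Without C57BL/6J replicate 1 it was 4 (median -0.14), and without replicate 3, the library of highest Hspa5, it was 3 (median -0.12). Fewer genes were called in all in these fits as well. The count was 12 without C57BL/6J replicate 2, and 8, 7 and 8 without H3 replicates 2, 3 and 4 in turn. It was 11 with sex as a covariate, 5 without H3 replicates 3 and 4, and 0 (median -0.12) with the log2 share of the identifier ENSMUSG00000098178 as a covariate.

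Among 21 cytosolic and mitochondrial heat-shock proteins 2 fell, 19 had a negative log2 fold change and the median was -0.16. The count was 1 without C57BL/6J replicate 1 or 3 or H3 replicate 2, 5 without C57BL/6J replicate 2, 12 in one fit of 5 groups and 0 with the log2 share of ENSMUSG00000098178 as a covariate. Cryab, a small heat-shock protein abundant in oligodendrocytes, was at 168, 166 and 197 CPM in C57BL/6J and at 113, 138, 129 and 134 CPM in H3 (log2 fold change -0.46, SE 0.071, adjusted p = 0.0089 in edgeR's quasi-likelihood test with Benjamini-Hochberg adjustment), and was also lower than in H2 (-0.28) and H1 (-0.30), both called. Chordc1, an HSP90 co-chaperone, fell by 0.33. Hspa1b had a log2 fold change of -1.71 that did not pass the test (adjusted p = 0.095).

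Most genes of myelin, oligodendrocytes and astrocytes were lower in H3 by point estimate, and few passed edgeR's test. Among 24 genes of myelin and mature oligodendrocytes 2 fell, Car2 and Ermn, 23 had a negative log2 fold change and the median was -0.16. Car2, a carbonic anhydrase of oligodendrocytes, was at 316, 310 and 329 CPM in C57BL/6J and at 269, 258, 251 and 253 CPM in H3 (log2 fold change -0.31, SE 0.041, adjusted p = 0.0041 in edgeR's quasi-likelihood test with Benjamini-Hochberg adjustment). The structural genes of myelin did not pass the test: Mbp was at 10708, 11454 and 11368 CPM in C57BL/6J and at 8230, 10790, 10293 and 10738 CPM in H3 (log2 fold change -0.16, adjusted p = 0.36). One library weighed on this list. Its summed level was 29705 to 31275 CPM in C57BL/6J and 23324, 28842, 28238 and 28611 CPM in H3, and without H3 replicate 1, the oldest mouse, the median was -0.10. Bcas1, a gene of oligodendrocytes that begin to myelinate, was at 648, 670 and 660 CPM in C57BL/6J and at 534, 577, 532 and 545 CPM in H3 (log2 fold change -0.27, SE 0.041), and Olig2, the lineage transcription factor, fell by 0.44 (SE 0.080). These were the 2 called among 13 genes of oligodendrocyte precursors (median -0.09), and Pdgfra, the receptor that defines these cells, had a log2 fold change of -0.01.

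Of 20 astrocyte genes 2 fell, 16 were lower by point estimate and the median was -0.06. Gjb6, a connexin of astrocyte gap junctions, was at 83.1, 76.1 and 88.9 CPM in C57BL/6J and at 65.8, 60.8, 68.7 and 67.2 CPM in H3. The groups did not overlap, and it fell with a log2 fold change of -0.33 (SE 0.056, adjusted p = 0.013 in edgeR's quasi-likelihood test with Benjamini-Hochberg adjustment). Further astrocyte genes picked after their values were seen were Glul, glutamine synthetase (-0.25), Kcnj10, the Kir4.1 potassium channel (-0.23) and Atp1b2, a beta subunit of the sodium pump (-0.22), all called. Gfap and Aqp4 had log2 fold changes of -0.09 (adjusted p = 0.63 in edgeR's test) and -0.22 (adjusted p = 0.089). Normalised with the other strains, Kcnj10 was at 929 to 976 CPM in H3 and at 1035 or above in every mouse of the other groups, and it was lower in H3 than in H2 by 0.21 and than in H1 by 0.25 on the log2 scale, both called. The glial counts were small and moved with the fit and with single libraries. The myelin count was 7 with DESeq2, without the low-count filter and in one fit of 5 groups, and the astrocyte count was 4 with DESeq2 and 5 in one fit of 5 groups. Without C57BL/6J replicate 1 they were 1 myelin, 1 precursor and 1 astrocyte gene, and without C57BL/6J replicate 3 they were 1, 1 and 0. In the direct comparison with H2, 5 of the 24 myelin genes fell (median -0.15), and in that with H1 2 fell (median -0.17). Against the shared controls the medians of the myelin list were 0.02 in H1, -0.03 in H2 and 0.00 in H4.

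**Figure D3:**
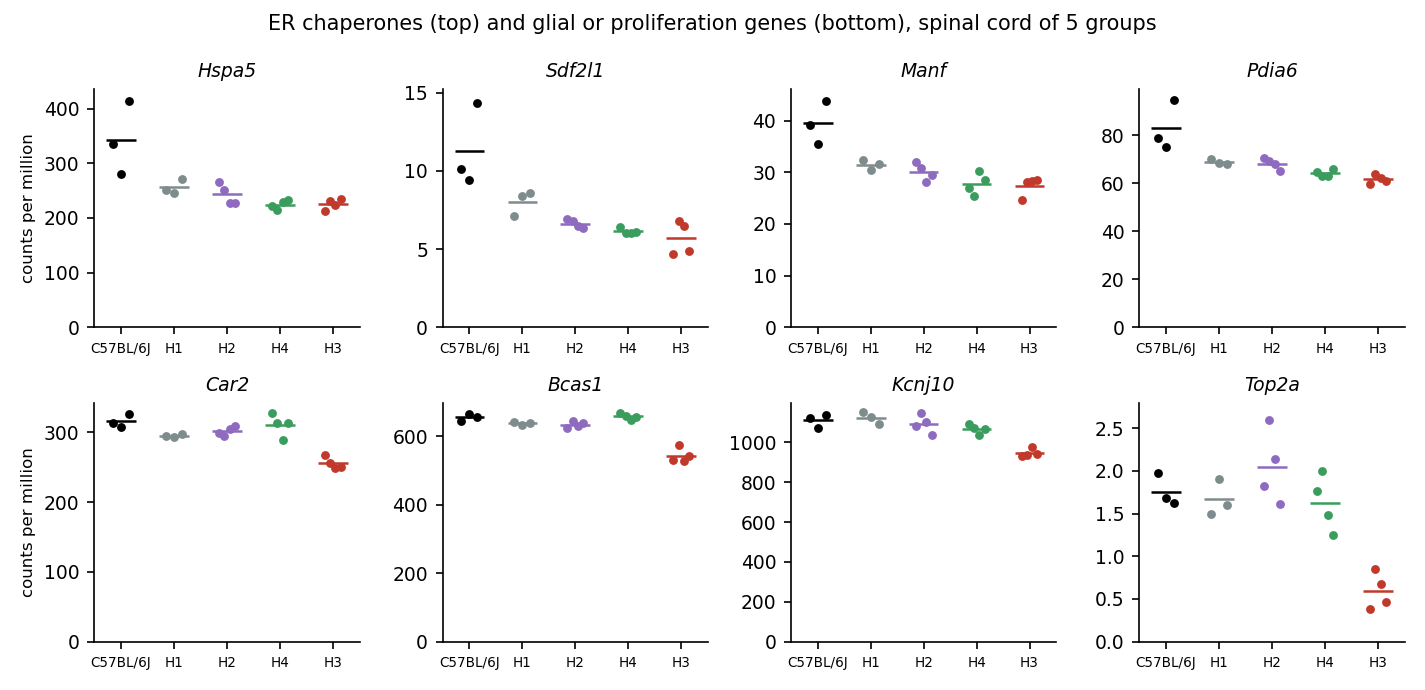
Levels in CPM (vertical axes, from 0) of 4 ER chaperone genes (top) and of Car2, Bcas1, Kcnj10 and Top2a (bottom) in spinal cord of 5 groups normalised together, with one point per mouse and a line at the group mean. For the chaperones all 4 mutant groups lie below the C57BL/6J mice, and for the bottom genes the H3 mice lie below the mice of every other group.

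The largest fold change among fallers was that of Top2a, topoisomerase II alpha, which is made in dividing cells. It was at 1.98, 1.69 and 1.63 CPM in C57BL/6J and at 0.383, 0.857, 0.681 and 0.463 CPM in H3 (log2 fold change -1.57, SE 0.27, adjusted p = 0.014 in edgeR's quasi-likelihood test with Benjamini-Hochberg adjustment). It was lower than in H2 by 1.78 on the log2 scale, and lower than in H1 as well, both called. Other genes of dividing cells, chosen after this value was seen, did not pass edgeR's test: Mki67 had a log2 fold change of -0.89 (adjusted p = 0.089, and 0.019 in DESeq2, which called it lower), Cenpf of -0.84 (adjusted p = 0.14), Kif11 of -0.27 (adjusted p = 0.59) and Cdca8 of 0.33 (adjusted p = 0.75).

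Endothelial genes were split. Of 22 tested 5 fell, 11 were higher and 11 lower by point estimate, and the median was -0.01. Apln, the peptide apelin of tip cells, was at 72.9, 72.3 and 75.8 CPM in C57BL/6J and at 52.0, 55.4, 52.6 and 47.9 CPM in H3 (log2 fold change -0.50, SE 0.051, adjusted p = 5.9e-04 in edgeR's quasi-likelihood test with Benjamini-Hochberg adjustment). Mfsd2a, the lysolipid transporter of the blood-brain barrier, was at 37.3, 34.9 and 36.6 CPM in C57BL/6J and at 23.8, 23.4, 25.4 and 27.4 CPM in H3 (log2 fold change -0.54, SE 0.062). Normalised together, Mfsd2a was at 31.6 to 36.3 CPM in H1, 20.6 to 29.6 CPM in H2 and 18.9 to 27.4 CPM in H4. Adgrl4, Ly6c1 and the glucose transporter Slc2a1 fell by 0.29, 0.31 and 0.23. Defining genes of endothelium did not pass the test, with log2 fold changes of 0.05 for Pecam1, 0.04 for Cdh5 and -0.03 for Cldn5. The count of 5 was 2 without C57BL/6J replicate 1 or 3 or without H3 replicate 2 or 3, 3 without C57BL/6J replicate 2 or H3 replicate 4, 3 with sex as a covariate and 2 with the log2 share of ENSMUSG00000098178 as a covariate. Apln was also at 51.4 to 55.3 CPM in H2 and 39.9 to 43.6 CPM in H4, against 71.8 to 75.3 CPM in C57BL/6J and 65.9 to 68.3 CPM in H1, and it did not differ detectably between H3 and H2 (log2 fold change -0.06, adjusted p = 0.67 in edgeR's test).

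Of 23 glucocorticoid-induced genes 6 fell and none rose (median -0.11): Plin4, a lipid droplet protein, by 1.09, the cell cycle inhibitor Cdkn1a by 0.56, the metallothioneins Mt2 and Mt1 by 0.52 and 0.30, Tsc22d3 by 0.28 and Htra1 by 0.27. Fkbp5 and Sgk1, both direct targets of the receptor, had log2 fold changes of 0.13 and 0.13 that did not pass the test. Normalised together with the other strains, Cdkn1a was at 24.4 CPM or more in each C57BL/6J library and at 15.9 to 19.7 CPM in H3. It was at 24.5 to 24.7 CPM in H1, 17.7 to 19.4 CPM in H2 and 17.1 to 22.5 CPM in H4. Mt2 was at 98.3, 94.3 and 88.5 CPM in C57BL/6J and at 76.1, 55.0, 66.3 and 63.2 CPM in H3, without overlap. The count of 6 was 1 without C57BL/6J replicate 1, 3 without C57BL/6J replicate 3, 2 with sex as a covariate and 3 with the log2 share of ENSMUSG00000098178 as a covariate, and the median moved to -0.24 without C57BL/6J replicate 2 and to -0.28 with that covariate. None of the 23 was called between H3 and H2 (median 0.03), and 2 fell in H3 against H1 (median -0.01). Dio2, the enzyme that activates thyroid hormone in astrocytes, fell by 0.53 and Hr, a thyroid hormone target, by 0.24, and these were the 2 called of 10 genes of thyroid hormone action (median -0.09). That count was 0 without C57BL/6J replicate 1 or with the log2 share of ENSMUSG00000098178 as a covariate. It was 1 without C57BL/6J replicate 2 or 3, without H3 replicate 2, 3 or 4, with sex as a covariate and with the replicate block. DESeq2 called 3. The median was -0.15 without C57BL/6J replicate 3 and 0.01 with sex as a covariate. Dio2 was not called between H3 and H2 (0.22, adjusted p = 0.26 in edgeR's test with Benjamini-Hochberg adjustment). Among other lists Elovl5, an elongase, fell by 0.17 in 16 genes of fatty acid synthesis (median 0.02). This call was lost without any one C57BL/6J replicate and without H3 replicate 2, 3 or 4. It was also lost with the replicate block and with sex or the log2 share of ENSMUSG00000098178 as a covariate. Outside the lists, Igfbp4, a binding protein of insulin-like growth factors, was at 22.6, 25.4 and 24.7 CPM in C57BL/6J and at 15.3, 17.0, 14.5 and 13.2 CPM in H3 (log2 fold change -0.69, SE 0.082), without overlap.

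Among the other called genes of smallest p were genes of metabolism and transport. Slc38a2, an amino acid transporter, was at 317, 295 and 315 CPM in C57BL/6J and at 238, 196, 232 and 233 CPM in H3 (log2 fold change -0.46, SE 0.060, adjusted p = 0.0039 in edgeR's quasi-likelihood test with Benjamini-Hochberg adjustment). Normalised together with the other strains, Slc38a2 was at 257 to 273 CPM in H1 and at 215 to 237 CPM in both H2 and H4. Gpd1, glycerol-3-phosphate dehydrogenase, was at 148, 145 and 142 CPM in C57BL/6J and at 119, 119, 118 and 114 CPM in H3, and Acot11, an acyl-CoA thioesterase, fell by 0.36. For these genes the groups were apart. Thbd, thrombomodulin, fell by 0.58, and Serpina3n, a protease inhibitor made by reactive astrocytes, rose by 0.36 (35.2, 32.8 and 36.4 CPM in C57BL/6J, 46.5, 44.7, 40.8 and 47.0 CPM in H3). In the comparison with H2 the genes of smallest p that were not called against C57BL/6J included C3, lower by 0.37, Sfrp5, a secreted Wnt antagonist, lower by 0.98, and Fads1, a fatty acid desaturase, lower by 0.21. C3 was at 79.0 to 86.0 CPM in C57BL/6J and at 86.9 to 95.0 CPM in H3.

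Neuronal lists held few calls. None of 13 genes of neurons in general (median -0.00), 17 of motor and other cholinergic neurons (0.10), 20 of excitatory neurons of the dorsal horn (0.04) and 22 of glutamate receptors (0.01) was called by edgeR, while 1, 6, 6 and 6 of them had an unadjusted p under 0.05. DESeq2 called 2 glutamate receptor genes higher, and one fit of 5 groups called 2 glutamate receptor genes higher and 1 cholinergic gene in each direction. Among 20 genes of inhibitory neurons of the cord, a class in which Rorb is made, Pvalb alone was called. Parvalbumin marks proprioceptive and some inhibitory neurons, and it was at 56.1, 54.4 and 53.7 CPM in C57BL/6J and at 46.3, 46.9, 48.4 and 44.1 CPM in H3 (log2 fold change -0.24, SE 0.046, adjusted p = 0.029 in edgeR's quasi-likelihood test with Benjamini-Hochberg adjustment). Gabra2, a GABA receptor subunit, fell by 0.19 (SE 0.039), the single call of 18 GABA and glycine receptor genes. Both calls were lost with sex or the log2 share of ENSMUSG00000098178 as a covariate, with the replicate block and without any one C57BL/6J replicate, H3 replicate 2 or H3 replicate 4, and that of Gabra2 also without H3 replicate 3 and in one fit of 5 groups. The glycine transporter Slc6a5, which marks glycinergic neurons, was at 603, 607 and 606 CPM in C57BL/6J and at 609, 583, 598 and 582 CPM in H3 (log2 fold change -0.03, adjusted p = 0.78 in edgeR's test). None of the Hox genes tested, none of 21 immediate early genes, none of the clock genes and none of 13 mitochondrially encoded genes was called by edgeR. At an unadjusted p under 0.05 there were 5 immediate early genes, 4 mitochondrial genes, 2 clock genes of the BMAL1 phase, 0 of the PER and DBP phase and 1 gene in each Hox list. DESeq2 called 1 immediate early gene higher, and edgeR without the low-count filter called 1 immediate early gene higher and 1 clock gene and 2 mitochondrial genes lower. All 13 mitochondrial genes had a negative log2 fold change, with a median of -0.10. Hemoglobin transcripts were lower by point estimate without passing the test, Hba-a1 at 58.3 to 82.5 CPM in C57BL/6J and 28.5 to 52.8 CPM in H3 (adjusted p = 0.053 in edgeR's test). The list of blood and bone marrow that holds them was split, with 5 of 9 genes higher and 4 lower (median 0.16, highest 3.50). None of the 9 was called by edgeR and 7 had an unadjusted p under 0.05. Without H3 replicate 1, 4 rose and 2 fell, and with the replicate block 3 fell. The part of blood content in the other differences was not tested.

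**Figure D4:**
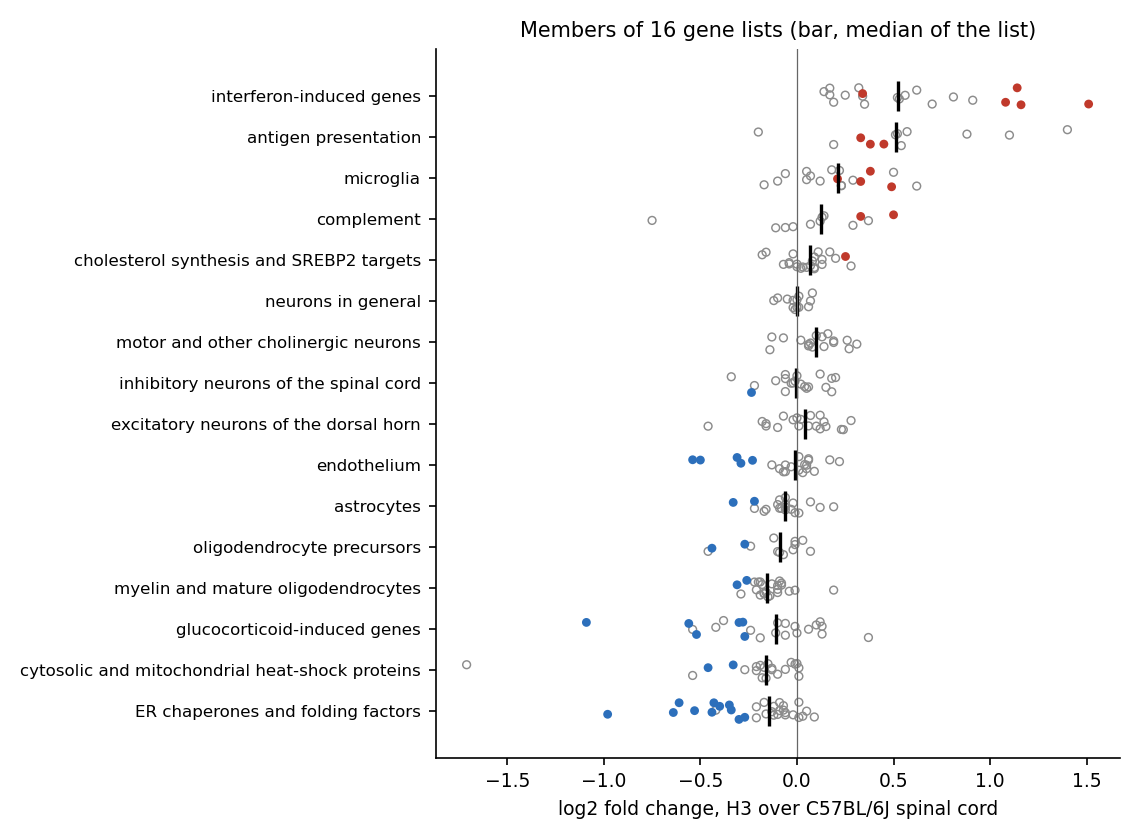
Log2 fold change of H3 over C57BL/6J spinal cord (horizontal axis) of the members tested of 16 gene lists, one point per gene, with red for genes that rose, blue for genes that fell, open circles for genes not called and a bar at the list median. The interferon-induced and antigen presentation lists have medians of 0.52 and 0.51, and those of myelin, heat-shock proteins and ER chaperones are -0.16, -0.16 and -0.15.

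The smallest p-value of the comparison belonged to Ide, the insulin-degrading enzyme (chr19:37268743-37334544, GRCm38). It was at 70.8, 65.0 and 70.6 CPM in C57BL/6J and at 132, 129, 133 and 135 CPM in H3 (log2 fold change 0.94, SE 0.041, adjusted p = 9.7e-08 in edgeR's quasi-likelihood test with Benjamini-Hochberg adjustment). Btaf1, which removes the TATA-binding protein from DNA, lies at chr19:36926079-37014057 and rose by 0.71 (SE 0.054), and Fgfbp3 at chr19:36917550-36919599 rose by 0.59 (SE 0.13). The genes between and beside them, Cpeb3, Marchf5 and Tnks2, had log2 fold changes of -0.03, 0.05 and -0.04 and were not called. H4 mice were high in Ide and Btaf1 as well. Normalised together, Ide was at 105 to 110 CPM in H4, 64.6 to 70.4 in C57BL/6J, 66.2 to 70.3 in H1 and 65.0 to 71.5 in H2. Btaf1 was at 44.8 to 48.8 CPM in H4, 34.3 to 38.4 in C57BL/6J, 33.9 to 34.9 in H1 and 33.0 to 39.2 in H2. Chromosome 19 held 11 calls in 518 genes tested (2.12%), against 1.01% of all genes. Among the 11 were Ide, Btaf1 and Fgfbp3, and the neighbouring interferon-induced genes Ifit1, Ifit3 and Ifit3b. Within 5 Mb of Rorb 1 of 37 genes was called, Aldh1a1 (chr19:20492583-20643463), an enzyme of retinoic acid synthesis, which fell by 0.29 (SE 0.038), and Aldh1a1 was not called between H3 and H2 (0.07, adjusted p = 0.36 in edgeR's test). Within 5 Mb of Tyr, whose Tyr c-2J allele distinguishes the colonies, 0 of 40 genes were called and 7 had an unadjusted p under 0.05. Of the 37 genes near Rorb 6 had such a p, beside 2376 of all 17512 genes tested. The pseudogene Amd-ps3, a copy of the polyamine enzyme gene Amd1 whose reads may be shared with its parent, was at 0.599, 0.398 and 0.507 CPM in C57BL/6J and at 4.41 to 8.62 CPM in the 4 H3 mice (log2 fold change 3.60, SE 0.29). In the joint normalisation it was at 0.679, 4.77, 0.871 and 3.68 CPM in the H4 mice and at most 0.931 CPM in H1 and H2. Ndn, the imprinted gene necdin, was at 125, 117 and 125 CPM in C57BL/6J and at 187, 183, 172 and 168 CPM in H3 (log2 fold change 0.54, SE 0.047), and did not differ detectably from H2 (0.08, adjusted p = 0.38 in edgeR's test).

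Brain hemisections of the same 7 mice showed which of these differences were found in another tissue. In brain 29 of 17688 genes were called (0.164%). Of the 176 genes called in spinal cord 22 were also called in brain, which is 12.5% of the spinal cord calls and 75.9% of the brain calls, and all 22 had the same direction. Of the 176 genes 174 had the same sign in brain, where the median log2 fold change was 0.31 for the spinal cord risers and -0.23 for the fallers. The 176 were chosen by their spinal cord values and both tissues came from the same mice, so the tissues are not independent. The share of all genes with the same sign in both tissues was not counted. The ER chaperones were also lower in brain, with 10 of 32 called and a median of -0.16: Hspa5 was at 346, 307 and 430 CPM in C57BL/6J and at 202, 214, 230 and 239 CPM in H3 brains. C4b rose in brain by 0.63, from 23.8, 23.7 and 22.3 CPM to 32.8, 34.4, 39.5 and 37.3 CPM, and Ide by 0.92. The interferon-induced list had a brain median of 0.17, with none of its genes called, and Ifit3 overlapped there, at 9.69, 6.57 and 6.76 CPM in C57BL/6J and 13.7, 9.95, 9.96 and 9.10 CPM in H3. Cxcl10 in brain was at 0.220, 0.203 and 0.202 CPM in C57BL/6J and at 0.749, 0.521, 0.811 and 0.574 CPM in H3, without overlap (log2 fold change 1.67, adjusted p = 0.10 in edgeR's quasi-likelihood test with Benjamini-Hochberg adjustment). The myelin list had a brain median of -0.21.

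Whether the effect of genotype differed between tissues was tested directly. In that fit 0 of 18874 genes (0%) were called by edgeR, 952 had an unadjusted p under 0.05, and DESeq2 called 6. None of the 20 interferon-induced genes was called by either tool, but without the low-count filter edgeR called 111 genes, among them Ifit1, Ifit3 and Oasl2. With the filter, the difference for Ifit3 was 0.59 (adjusted p = 0.89 in edgeR's quasi-likelihood test with Benjamini-Hochberg adjustment) and for Oasl2 0.85 (adjusted p = 0.47). The smallest p-value was that of Igfbp4, which was at 28.4, 32.5 and 37.4 CPM in C57BL/6J and at 37.7, 30.5, 32.9 and 30.7 CPM in H3 brains (log2 fold change 0.00), with a difference between tissues of -0.70 (adjusted p = 0.26 in edgeR's test).

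**Figure D5:**
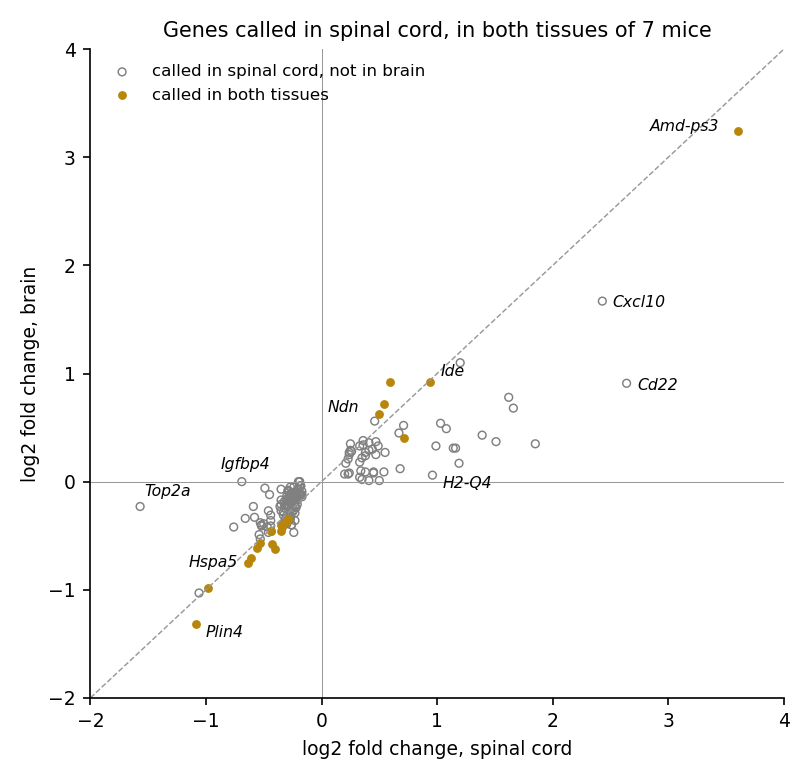
Log2 fold change of H3 over C57BL/6J in brain (vertical axis) against that in spinal cord (horizontal axis) for the 176 genes called in spinal cord, with filled points for the 22 called in both tissues and a dashed line at equal values. Of the 176 points 174 have the same sign in both tissues, and Cxcl10 and Cd22 lie below the dashed line.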

How the data were processed

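RNA of whole spinal cords and brain hemisections was converted to polyA libraries and read as 150 bp pairs. Per the paper's methods and the labels, the authors trimmed reads with Trim Galore, aligned them with STAR to GRCm38 and ran RSEM, which divides reads shared by several genes. The deposited files give expected counts per Ensembl gene, which were rounded and tested here, and the authors' TPM values, normalised for length and depth by RSEM, which were kept beside the counts and support no test. The annotation version is not given in the sources used here. Symbols were joined to 41407 of 45706 identifiers and GRCm38 positions to 31371. Between 1.93% and 10.13% of the counts of the 7 spinal cord libraries fell in identifiers without a symbol.

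H3 and C57BL/6J spinal cords were compared with edgeR 4.0.16 in R 4.3.3 (TMM, filterByExpr, quasi-likelihood test, Benjamini-Hochberg adjusted p of 0.05). The SE is the log2 fold change over the square root of the F statistic. Direct comparisons with H2 and H1, the comparison in brain and the term for the difference between tissues were fitted the same way. On counts simulated for the comparison of H3 with C57BL/6J spinal cord with 200 changed genes, edgeR recovered 26.5%, 65.5% and 86% of changes of 0.3, 0.5 and 1 on the log2 scale. Named were Rorb, the 20 genes of smallest p that rose and the 20 that fell, called genes over 1 on the log2 scale, called list members and otherwise the 2 highest members of a list, called genes within 5 Mb of Rorb or Tyr, and the 10 genes of smallest p of each further comparison. The members and the 40 gene lists were chosen with earlier results of these data known. Same-numbered libraries did not deviate together, so they were not paired. Alternatives were DESeq2 1.42.0, which the authors used, its size factors, no filter on low counts, sex as a covariate, a replicate block, one fit of 5 groups and leaving out each replicate. After seeing the data, fits without H3 replicates 3 and 4, without the identifier ENSMUSG00000098178 and with its log2 share as a covariate were added. All labelled mice were kept, and of 9 pairs of replicates 0 were identical. Some genes of the lists are counted but not reported here by name.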

Additional observations from a re-analysis of the deposited data

Results flagged for a closer look

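Among 150 named genes examined, 8 had a single H3 spinal cord library that stood apart from the other 3 by Dixon's test, and chance alone marks about 1 in 20 groups. Ifit1 was at 9.06 CPM in replicate 4 and at 4.58 to 5.01 CPM in the others. H2-K1 was at 30.4 CPM in replicate 4 against 25.6 to 26.4 CPM. Manf was at 24.9 CPM in replicate 1 against 28.2 to 28.7 CPM, and Slc38a2 at 196 CPM in replicate 2 against 232 to 238 CPM. Of genes not called, Nr1d2, a clock gene, was at 195 CPM in replicate 1 against 145 to 152 CPM, Sec62 at 203 CPM in replicate 4 against 219 to 222 CPM, Kl at 4.27 CPM in replicate 4 against 6.15 to 6.25 CPM, and Pfkfb3 at 104 CPM in replicate 4 against 92.9 to 94.3 CPM.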

How the results depend on the processing

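All 176 genes called kept their sign in every alternative run, while the number of calls in H3 spinal cord varied. It was 430 with DESeq2, 380 without the low-count filter, 553 in one fit of 5 groups, 72 with sex as a covariate, 106 without H3 replicates 3 and 4 and 53 with the share of ENSMUSG00000098178 as a covariate. With the replicate block it was 186, of which 132 were among the 176. Leaving out one mouse gave 34 (without C57BL/6J replicate 1) to 295 (without H3 replicate 1), with 89 and 52 without C57BL/6J replicates 2 and 3 and 93, 112 and 129 without H3 replicates 2, 3 and 4. The number of calls therefore depended on which mice and which covariates entered the fit, and the cause was not tested. In brain the count was 196 with DESeq2, 86 without the filter, 2 with the replicate block and 7 to 29 leaving out one mouse. For the difference between tissues it was 6 with DESeq2, 111 without the filter and 0 to 4 leaving out one mouse. H3 against H2 gave 369 with DESeq2, 252 without the filter, 37 with sex, 75 with the replicate block and 37 to 164 leaving out one mouse, and H3 against H1 gave 259, 283, 21 and 6 to 149 with DESeq2, without the filter, with sex and leaving out one mouse.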

Other observations

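Several genes outside the lists also fell in H3 spinal cord and were picked after their values were seen. Daam2, which acts in Wnt signalling of glial precursors, was at 227, 228 and 241 CPM in C57BL/6J and at 170, 182, 182 and 193 CPM in H3 (log2 fold change -0.35, SE 0.046, adjusted p = 0.0034 in edgeR's quasi-likelihood test with Benjamini-Hochberg adjustment), and it fell in brain by 0.40. Ptch1, the hedgehog receptor, was at 201, 189 and 187 CPM in C57BL/6J and at 170, 138, 159 and 152 CPM in H3 (log2 fold change -0.31, SE 0.059). Gjc3, connexin 29 of myelinating cells, fell by 0.26, Gltp, a glycolipid transfer protein, by 0.27 and Gatm, the first enzyme of creatine synthesis, by 0.23. Gltp was also lower than in H2 by 0.27 and than in H1 by 0.29, and Gatm lower than in H2 by 0.25, all called, while Gjc3 was not called in either comparison. Adamts2, a procollagen protease, rose by 0.41 (15.3, 17.0 and 18.1 CPM in C57BL/6J, 19.9, 22.9, 23.4 and 23.2 CPM in H3).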
